A study of Mus musculus with 12 samples.

Results

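The 32 genes described here encode the glucose and lactate transporters, the enzymes that turn glucose into lactate, 3 regulators of that pathway, and hypoxia-inducible factor 1 alpha (HIF-1 alpha) with its hydroxylases and targets. They were chosen by name as genes of glycolysis and the hypoxia response and not by their values, though with earlier results of these data known. All 32 were found among the 15555 genes of the deposited count table. All 32 had counts above 0 in every library and passed the filter on low counts, the lowest single count being 53, for Ldhb. The cells were mouse bone-marrow-derived macrophages, grown to day 9 in medium with L-cell supernatant, a source of the growth factor CSF-1. RNA was counted in 12 libraries, 3 for each of 4 genotypes: WT, Cbl-/-, Cbl-b-/- and DKO, labelled as lacking both Cbl and Cbl-b. Both genes encode E3 ubiquitin ligases, known for ending signals from tyrosine kinase receptors, and the design compares macrophages labelled as lacking 1, the other or both. All groups shared the same culture, with no added treatment and no oxygen level given in the labels, and strain, age and sex of the mice were likewise not given in the sources used here.

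Glycolysis splits glucose into pyruvate in the cytosol, and lactate dehydrogenase turns pyruvate into lactate, which monocarboxylate transporters carry out of the cell. HIF-1 alpha is a transcription factor that prolyl hydroxylases of the Egln family mark for degradation when oxygen is present. Without that mark it binds DNA with the core ACGTG or GCGTG and raises transcription of most of these genes. Macrophages are known to raise glycolysis and HIF-1 alpha when activated by inflammatory signals, also in ample oxygen, and HIF-1 alpha protein is set mainly by its stability, which RNA counts do not show.

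The targeted genes were checked first. Cbl had 141, 143 and 136 CPM (counts per 1000000 of the library's TMM-scaled total) in WT, 54.0, 51.2 and 49.3 in Cbl-/-, 143, 137 and 138 in Cbl-b-/- and 41.0, 36.8 and 35 in DKO, so it was low in both groups labelled as lacking it. Cblb had 62.2, 55.5 and 60.6 CPM in WT, 67.9, 68.2 and 69.2 in Cbl-/-, 54.5, 54.4 and 49.4 in Cbl-b-/- and 73.4, 68.0 and 73.7 in DKO. The libraries labelled Cbl-b-/- all lay slightly below WT and those labelled DKO all above it. In neither group did Cblb fall as Cbl did, so its counts go against the labels Cbl-b-/- and DKO. A gene-wide count may, however, stay level when an allele is disrupted without loss of its RNA. Both groups are therefore named by label below, and every direction drawn from them rests on the labels. Total counts ranged from 21048103 to 43946503 per library. The labels do not say that replicates are separate animals, and the p-values therefore cover no more than library-to-library spread, possibly technical. All 12 macrophage markers checked were present, with a summed level of 21220 to 23440 CPM in WT, 18380 to 19360 in Cbl-/-, 21660 to 23970 in the libraries labelled Cbl-b-/- and 17580 to 20820 in those labelled DKO. Lyz2 alone made up most of each sum. Its mean was 15670 CPM in WT, 12370 in Cbl-/-, 16220 under the label Cbl-b-/- and 14080 under the label DKO. In bulk RNA, fewer cells of a type and less RNA per cell cannot be told apart.

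In Cbl-/- macrophages the changes were small and went in both directions. Of the 32 genes 4 rose, Slc2a1, Slc16a3, Pdk1 and Hif1a, by 0.19 to 0.29 on the log2 scale, and 4 fell, Pkm, Pfkfb3, Bnip3l and Ero1l, by 0.22 to 0.57. None changed by 1.5-fold or more. The 8 genes called are 25% of the members, beside 9.87% of the 12671 genes tested that differed between Cbl-/- and WT in either direction, 5.68% higher and 4.19% lower (edgeR's quasi-likelihood F test, adjusted p under 0.05). The median log2 fold change was 0.01 over the members and -0.01 over all genes tested. In 9 members all 3 Cbl-/- libraries lay above all 3 WT libraries and in 5 they all lay below, against 19% and 18.6% of all genes tested. The count rested on every library of the comparison: it was 2 without WT 1, 3 without WT 2, Cbl-/- 1 or Cbl-/- 2, 4 without Cbl-/- 3 and 5 without WT 3. Under all 20 alternatives run, Slc2a1 and Pfkfb3 alone stayed past the threshold.

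In the libraries labelled Cbl-b-/- 0 of the 32 genes passed the test against WT, where 0.489% of all genes did, 0.395% higher and 0.0947% lower. All 3 libraries lay above all 3 WT libraries in 1 member and below them in 6, against 7.84% and 7.27% of all genes tested. At an unadjusted p under 0.05 there were 3, Pfkfb4 (0.17), Egln3 (0.30) and Higd1a (0.22), beside 7.6% of all genes, and DESeq2 and limma voom also called 0. The members' median was -0.02, and their log2 fold changes ran from -0.14 for Hk1 to 0.30 for Egln3. A miss of the threshold does not show that these levels were equal.

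Under the label DKO, 18 of the 32 genes differed from WT, most of them higher. In all, 15 rose: all 3 transporters, 7 enzymes from Pfkp to Ldha, Pdk1, Hif1a, Egln3, Vegfa and Higd1a, while Pfkm, Pfkfb4 and Bnip3l fell. The largest increases were those of Egln3, which encodes an oxygen-sensing prolyl hydroxylase, and Vegfa, the growth factor for blood vessels, both 1.72-fold, followed by Hif1a at 1.54-fold. These 3 were the only members that changed by 1.5-fold or more. The 18 calls are 56.2% of the members, beside 35.4% of all genes tested, and the split was 46.9% higher and 9.4% lower against 19.1% and 16.3% of all genes. The members' median was 0.17, against -0.0029 over all genes tested. In 16 members all 3 libraries labelled DKO lay above all 3 WT libraries and in 4 all lay below, against 23.7% and 22.8% of all genes. With libraries scaled by total counts the split was 12 higher and 6 lower, as Gapdh, Eno1 and Pdk1 left the higher calls and Aldoc, P4ha1 and Ero1l joined the lower ones. The same 3 WT libraries serve all comparisons with WT, whose results are therefore set side by side and not counted as independent.

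**Figure D1:**
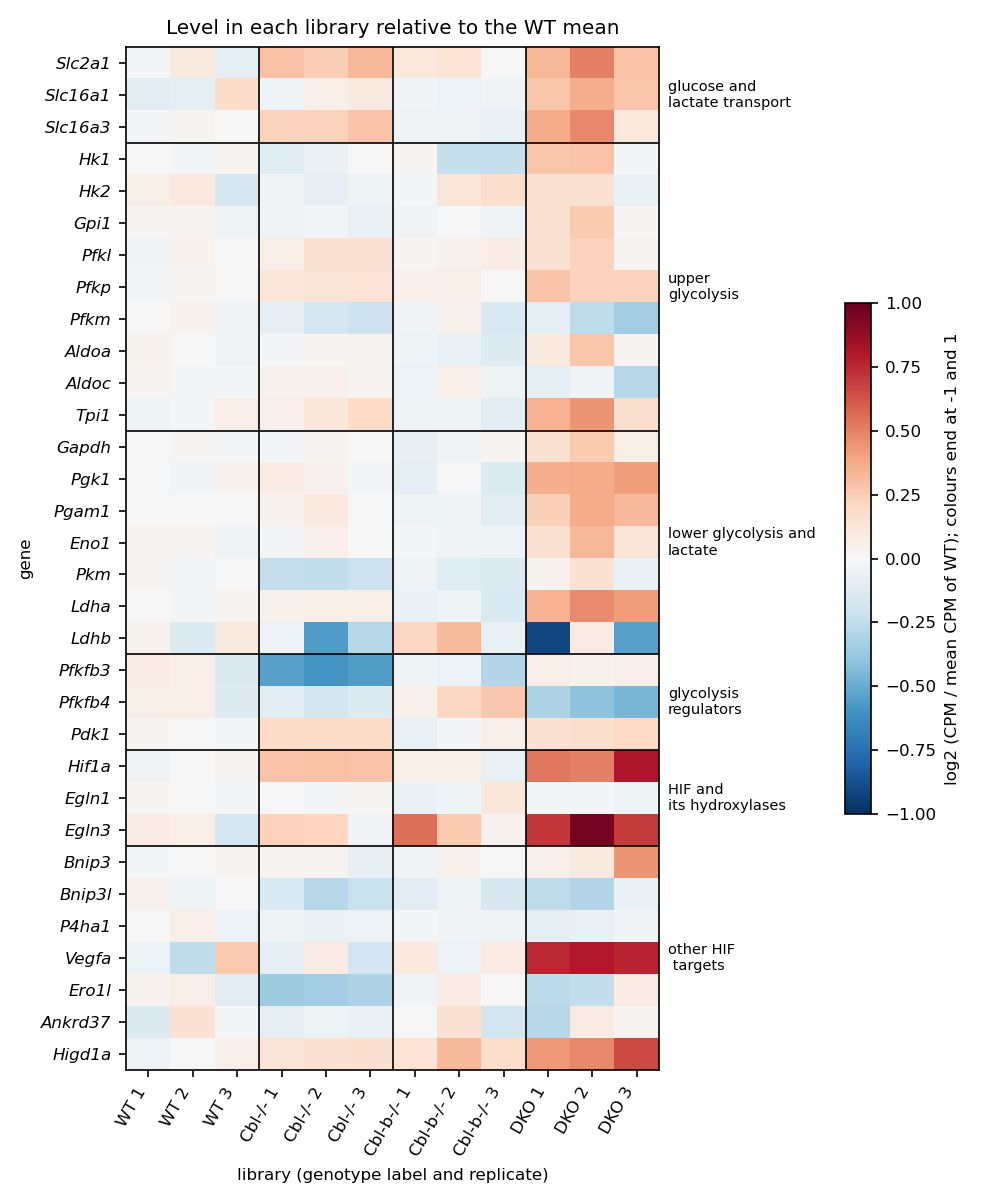
Level of each of the 32 genes (rows, grouped by role) in each of the 12 libraries (columns) as log2 of its CPM over the mean CPM of the 3 WT libraries; red is higher and blue lower, with colours ending at -1 and 1. The 3 libraries labelled DKO are red for Slc2a1, Slc16a1, Pgk1, Pgam1, Ldha, Hif1a, Egln3, Vegfa and Higd1a, and the 3 Cbl-/- libraries are blue for Pkm, Pfkfb3, Bnip3l and Ero1l.

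Markers of other cell types moved with the labels Cbl-/- and DKO. Under the label Cbl-b-/- the fibroblast marker Col1a1 alone passed, at 0.312 CPM against 1.68 in WT. Under the label DKO the endothelial markers Pecam1 and Eng rose and Vwf fell. In Cbl-/- the granulocyte markers S100a9 and Ngp, the endothelial markers Vwf and Eng and the mast cell marker Kit rose. The 7 of 8 endothelial markers in the table summed to 172 to 179 CPM there against 140.4 to 156 in WT, 148 to 152 in the libraries labelled Cbl-b-/- and 128 to 157 in those labelled DKO, with Tek and Tie1 at 0 in at least 1 library. Of the 12 macrophage markers C1qa and Mrc1 rose and Adgre1, Lyz2, Mertk and Cx3cr1 fell in Cbl-/-, where 5.68% of all genes tested rose and 4.19% fell. Of 12 granulocyte markers 7 were in the table, with a summed level of 75.6 to 95.2 CPM in the libraries labelled DKO against 12.5 to 15.0 in WT, 12.3 to 13.1 in Cbl-/- and 13.1 to 17.0 in those labelled Cbl-b-/-. S100a8, S100a9, Prtn3, Ltf and Ngp rose under the label DKO, 5 of the 6 tested, beside 19.1% of all genes tested. Csf3r, the other marker tested, did not pass. It stood at 8.08 CPM under that label against 10.1 in WT, where it made up most of the sum. Prtn3 and Cxcr2 were at 0 in at least 1 library. The 7 of 10 fibroblast markers in the table summed to 12.2 to 15.0 CPM under that label against 2.31 to 4.86 in WT, 4.06 to 7.45 in Cbl-/- and 0.919 to 1.83 in the libraries labelled Cbl-b-/-, with Dcn, Fap, Thy1 and Postn at 0 in at least 1 library. Dendritic cell markers (6 of 8 in the table) summed to 30.6 to 32.9 CPM under the label DKO against 16.4 to 19.7 in WT, mast cell markers (2 of 7) to 2.09 to 2.40 against 0.411 to 0.595, and megakaryocyte markers (3 of 6) to 29.1 to 33.6 against 62.8 to 75.0. Single genes made up most of 2 of these sums. Itgax had a mean of 28.8 CPM under the label DKO against 17.1 in WT, and Pf4 31.0 against 66.9. In the libraries labelled DKO 8 of the 12 macrophage markers fell and 1, Fcgr1, rose, beside 16.3% lower and 19.1% higher over all genes tested. The part of all these markers in the changes of the glycolysis genes was not tested.

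Hif1a, at chr12:73901375-73947530 on the plus strand (GENCODE, GRCm38), stood at 137, 141 and 143 CPM in WT, 171, 172 and 171 in Cbl-/-, 147, 147 and 134 in the libraries labelled Cbl-b-/- and 203, 199 and 246 in those labelled DKO. The 3 Cbl-/- libraries lay close together and above WT, those labelled Cbl-b-/- overlapped WT, and those labelled DKO were higher than all other libraries, with DKO 3 highest. Against WT it rose by 0.29 (SE 0.07, adjusted p = 0.015) in Cbl-/- and by 0.62 (SE 0.07, adjusted p = 4.3e-06) in the libraries labelled DKO. The call in Cbl-/- was lost without WT 1, WT 2, Cbl-/- 1, Cbl-/- 2 or Cbl-/- 3 (adjusted p = 0.077, 0.054, 0.052, 0.059 and 0.052).

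The hydroxylases that mark HIF-1 alpha differed from each other. Egln1, which encodes PHD2, the main oxygen sensor in most cells, had 87.7, 87.4 and 86.5 CPM in WT, 87.6, 86.6 and 88.2 in Cbl-/-, 82.9, 84.7 and 94.4 in the libraries labelled Cbl-b-/- and 86.2, 86.6 and 84.5 in those labelled DKO. Apart from Cbl-b-/- 3 its 12 values lay within a few CPM of each other, and its log2 fold change was 0.00, 0.00 and -0.02 in the 3 comparisons with WT (SE 0.05 or 0.06). Egln3, which encodes PHD3 and is itself a HIF target, had 9.78, 9.65 and 8.22 CPM in WT, 10.8, 10.7 and 9.03 in Cbl-/-, 13.5, 11.1 and 9.42 in the libraries labelled Cbl-b-/- and 15.1, 17.8 and 14.9 in those labelled DKO. The libraries labelled DKO lay above all others, and the remaining groups overlapped. Egln3 rose by 0.78 (SE 0.13, adjusted p = 1.5e-04) in the libraries labelled DKO, and its change was 0.14 (SE 0.13, adjusted p = 0.63) in Cbl-/-, where it did not pass.

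**Figure D2:**
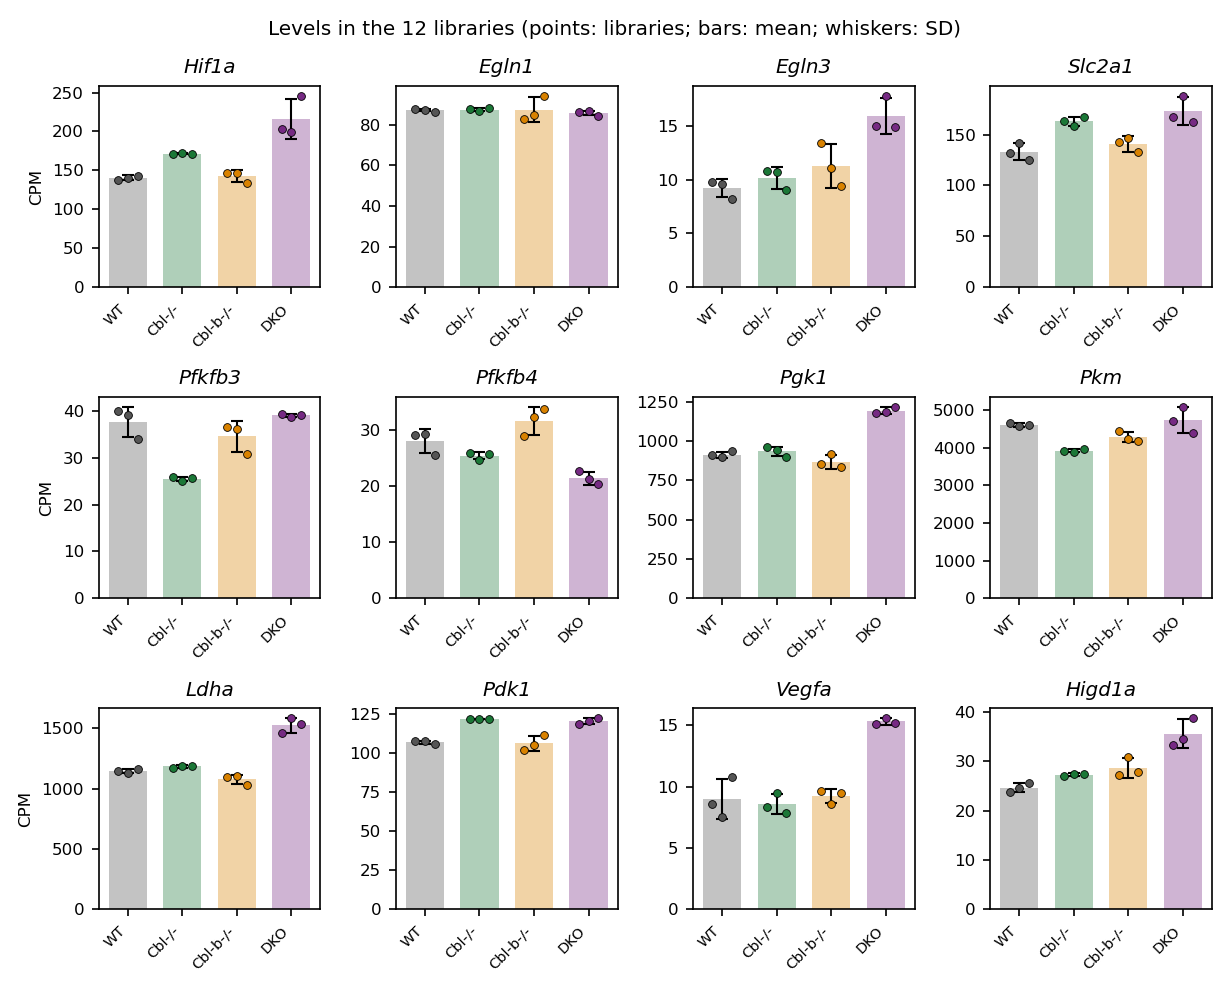
Level in CPM (vertical axes, from 0) of 12 of the genes in each of the 12 libraries (points), with the group mean (bars) and SD (whiskers, n = 3). Hif1a, Egln3 and Vegfa reach their highest levels in the 3 libraries labelled DKO, Egln1 stays between 82.9 and 94.4 CPM throughout, and Pfkfb3 and Pkm are lowest in Cbl-/-.

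All 3 transporters rose in the libraries labelled DKO and 2 of the 3 in Cbl-/-, beside 19.1% and 5.68% of all genes tested. Slc2a1, the glucose transporter GLUT1, had 132, 142 and 125 CPM in WT, 163, 158 and 167 in Cbl-/-, 143, 147 and 132 in the libraries labelled Cbl-b-/- and 168, 188 and 162 in those labelled DKO. Its Cbl-/- and DKO values overlapped each other and lay above all WT values, with log2 fold changes of 0.29 (SE 0.07, adjusted p = 0.0085) and 0.38 (SE 0.07, adjusted p = 3.2e-04) against WT. Slc16a3, the lactate exporter MCT4, had 131, 135 and 132 CPM in WT, 156, 156 and 162 in Cbl-/-, 129, 129 and 126 in the libraries labelled Cbl-b-/- and 171, 185 and 142 in those labelled DKO. DKO 3 was the lowest of its group, below the Cbl-/- libraries and above WT. It rose by 0.25 (SE 0.07, adjusted p = 0.037) in Cbl-/- and by 0.33 (SE 0.07, adjusted p = 0.0022) in the libraries labelled DKO. The first of these calls was lost when any of the WT or Cbl-/- libraries was left out (adjusted p = 0.087 to 0.14) and without Cbl-b-/- 1 or Cbl-b-/- 2 (adjusted p = 0.052 and 0.053). Slc16a1, the monocarboxylate transporter MCT1, had 31.0, 31.1 and 37.9 CPM in WT, 32.6, 35 and 35.6 in Cbl-/-, 32.8, 32 and 32.6 in the libraries labelled Cbl-b-/- and 40.4, 43.0 and 40.4 in those labelled DKO. Only the libraries labelled DKO stood above the WT range, and the change there was 0.31 (SE 0.08, adjusted p = 0.0049).

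The upper pathway, from hexokinase to triose phosphate isomerase, has 9 of the genes. Of these 2 rose, 1 fell and 6 stayed short of the threshold in the libraries labelled DKO, beside 19.1% higher and 16.3% lower over all genes tested. In Cbl-/- 0 passed, beside 5.68% higher and 4.19% lower over all genes tested. There Pfkl (0.12) and Pfkp (0.13) had unadjusted p-values of 0.047 and 0.014. Tpi1, triose phosphate isomerase, had 482, 497 and 524 CPM in WT, 518, 543 and 576 in Cbl-/-, 485, 487 and 463 in the libraries labelled Cbl-b-/- and 638, 678 and 561 in those labelled DKO. Its DKO values all exceeded WT, while DKO 3 lay within the range of Cbl-/-, and the change from WT was 0.32 (SE 0.07, adjusted p = 0.0012). The 3 phosphofructokinase genes, whose products form the committed step of glycolysis, went different ways. Pfkp, the platelet type, had 129.7, 132 and 130.2 CPM in WT, 142, 143 and 143 in Cbl-/-, 136, 137 and 131 in the libraries labelled Cbl-b-/- and 159, 154 and 153 in those labelled DKO. The libraries labelled DKO lay above all others and Pfkp rose there by 0.25 (SE 0.05, adjusted p = 6.3e-04). Pfkm, the muscle type, had 18.1, 18.6 and 17.7 CPM in WT, 17.2, 16.0 and 15.7 in Cbl-/-, 17.8, 18.7 and 16.4 in the libraries labelled Cbl-b-/- and 17.0, 15.2 and 14.3 in those labelled DKO. It fell by 0.23 (SE 0.08, adjusted p = 0.046) in the latter, a call that 11 of 20 alternatives lost; these included leaving out WT 1, 2 or 3, Cbl-/- 1, 2 or 3, Cbl-b-/- 1, DKO 2 or DKO 3 (adjusted p = 0.055 to 0.14). Pfkl, the liver type, was at 116 ± 2.6 CPM in WT and 128 ± 9.1 in the libraries labelled DKO (SD, n = 3), at 0.14 (SE 0.06, adjusted p = 0.074) on the log2 scale.

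The hexokinase and aldolase genes and Gpi1 did not pass against WT in any genotype. Hk1 had 175 ± 2.4 CPM in WT and 199 ± 22 in the libraries labelled DKO, Hk2 81.8 ± 8.0 and 86.7 ± 7.4, and Gpi1, glucose-6-phosphate isomerase, 717 ± 17 and 793 ± 67 (SD, n = 3). Aldoa, the main aldolase gene here, was at 1710 ± 40 and 1877 ± 175 CPM and Aldoc at 57.2 ± 0.87 and 52.2 ± 4.7. The log2 fold changes in the libraries labelled DKO ran from -0.13 for Aldoc to 0.19 for Hk1. With libraries scaled by total counts Aldoc did pass as lower there.

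In the lower pathway, from Gapdh to lactate dehydrogenase, 5 of 7 genes rose in the libraries labelled DKO and 0 fell. Over all genes tested 19.1% rose and 16.3% fell there. Pkm and Ldhb stayed short of the threshold. Ldha, which makes the main lactate dehydrogenase subunit, had 1149, 1132 and 1160 CPM in WT, 1173, 1191 and 1192 in Cbl-/-, 1096, 1105 and 1033 in the libraries labelled Cbl-b-/- and 1461, 1587 and 1534 in those labelled DKO. Pgk1, phosphoglycerate kinase, had 908, 895 and 934 CPM in WT, 959, 942 and 901 in Cbl-/-, 855, 915 and 832 in the libraries labelled Cbl-b-/- and 1174, 1183 and 1218 in those labelled DKO. Both were higher in each library labelled DKO than in any of the other 9 libraries, by 1.33-fold and 1.31-fold over the WT mean, with log2 fold changes of 0.41 (SE 0.05, adjusted p = 6.2e-06) and 0.39 (SE 0.05, adjusted p = 1.9e-05). Pgam1, phosphoglycerate mutase, had 1050, 1052 and 1046 CPM in WT, 1075, 1122 and 1047 in Cbl-/-, 1014, 1023 and 968 in the libraries labelled Cbl-b-/- and 1234, 1357 and 1312 in those labelled DKO. It too was highest in those 3 libraries, and rose by 0.31 (SE 0.05, adjusted p = 1.7e-04).

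Eno1 and Gapdh also rose in the libraries labelled DKO. Eno1, enolase, had 1912, 1906 and 1833 CPM in WT, 1863, 1950 and 1879 in Cbl-/-, 1857, 1836 and 1828 in the libraries labelled Cbl-b-/- and 2089, 2371 and 2063 in those labelled DKO, with DKO 2 well above its partners. Gapdh had 657, 659.9 and 643 CPM in WT, 644, 664 and 653 in Cbl-/-, 618, 637 and 662 in the libraries labelled Cbl-b-/- and 726, 785 and 679.9 in those labelled DKO, where DKO 3 lay closest to the rest. Their log2 fold changes in the libraries labelled DKO were 0.21 (SE 0.06, adjusted p = 0.0083) and 0.16 (SE 0.05, adjusted p = 0.031). The Gapdh call was lost without WT 1, WT 2, WT 3, DKO 1 or DKO 2 (adjusted p = 0.079, 0.069, 0.086, 0.054 and 0.13), and both calls were lost with total counts or with only the compared genotypes in the fit. Ldhb, the other lactate dehydrogenase subunit, was scarce, at 3.25 ± 0.27 CPM in WT and 2.46 ± 0.88 in the libraries labelled DKO (SD, n = 3), too few counts for a precise fold change, which was -0.41 (SE 0.23, adjusted p = 0.18) on the log2 scale.

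Pkm, which encodes the pyruvate kinase of macrophages and was the most abundant of the 32 genes, differed in another genotype. It had 4654, 4569 and 4605 CPM in WT, 3904, 3891 and 3966 in Cbl-/-, 4450, 4232 and 4184 in the libraries labelled Cbl-b-/- and 4724, 5098 and 4407 in those labelled DKO. All 3 Cbl-/- libraries were below every other library, while the libraries labelled DKO lay on both sides of WT. It fell by 0.23 (SE 0.05, adjusted p = 0.010) in Cbl-/- and was at 0.04 (SE 0.05, adjusted p = 0.60) in the libraries labelled DKO, where its sign turned with total counts (-0.03) and without DKO 2 (-0.01). Its call in Cbl-/- was lost without WT 1, Cbl-/- 1 or Cbl-/- 2 (adjusted p = 0.054, 0.052 and 0.054).

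Copies elsewhere in the genome make some of these enzymes uncertain, because how reads matching several places were counted was not given in the sources used here. Transcripts of 76 other annotated genes matched Gapdh at 95% identity or more over at least 300 bases, 4 of them in the table with 0.705% of the counts of Gapdh. Pgk1 had 4 such genes, Eno1, Ldha and Bnip3 had 3 each, and Tpi1, Pgam1, Pkm, Gpi1, Ldhb and Bnip3l had 1 each. Copies in the table carried 0.184% of the counts of Pgk1 and 0.0462% of those of Eno1. Matches of that kind on the opposite strand were found for Pfkp (Pitrm1), Higd1a (Gm47112), Bnip3 (AC160336.1 and Gm45507) and Gapdh (Vmn2r60). The use of strand in counting was not stated in those sources either.

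The 3 regulators of glycolytic flux each showed another pattern. Pfkfb3 makes fructose 2,6-bisphosphate, the activator of phosphofructokinase. It had 40.0, 39.3 and 34.1 CPM in WT, 26.0, 25 and 25.6 in Cbl-/-, 36.8, 36.2 and 30.9 in the libraries labelled Cbl-b-/- and 39.5, 38.8 and 39.2 in those labelled DKO. The 3 Cbl-/- libraries lay below all others, and those labelled DKO lay within the WT range. It fell by 0.57 (SE 0.08, adjusted p = 1.1e-04) in Cbl-/-, the largest change of any member there, and was at 0.05 (SE 0.08, adjusted p = 0.66) in the libraries labelled DKO, a sign that turned with total counts (-0.02) and without WT 3 (-0.02). Pfkfb4, a second enzyme of that kind, had 29.2, 29.3 and 25.6 CPM in WT, 26.0, 24.7 and 25.7 in Cbl-/-, 28.9, 32.4 and 33.8 in the libraries labelled Cbl-b-/- and 22.7, 21.2 and 20.4 in those labelled DKO. Here the libraries labelled DKO were the lowest 3 of the 12, and Pfkfb4 fell there by 0.39 (SE 0.08, adjusted p = 0.0011). Per length of the union of annotated exons Pfkfb3 made up 46.5% ± 0.34 of the sum of both genes in WT and 39.3% ± 0.21 in Cbl-/-. Its share was 41.4% ± 4.0 in the libraries labelled Cbl-b-/- and 54.1% ± 1.2 in those labelled DKO (SD, n = 3).

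Pdk1, a kinase that turns off pyruvate dehydrogenase and so limits the oxidation of pyruvate in mitochondria, had 108, 108 and 106 CPM in WT, 122, 122 and 122 in Cbl-/-, 102, 106 and 112 in the libraries labelled Cbl-b-/- and 119, 120.3 and 123 in those labelled DKO. The Cbl-/- libraries were nearly identical to each other, and both they and those labelled DKO lay above WT. It rose by 0.19 (SE 0.05, adjusted p = 0.023) in Cbl-/- and by 0.17 (SE 0.05, adjusted p = 0.013) in the libraries labelled DKO. The first call was lost when any of the WT or Cbl-/- libraries was left out (adjusted p = 0.075 to 0.085) and the second with total counts (0.15) or only the compared genotypes (0.051).

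**Figure D3:**
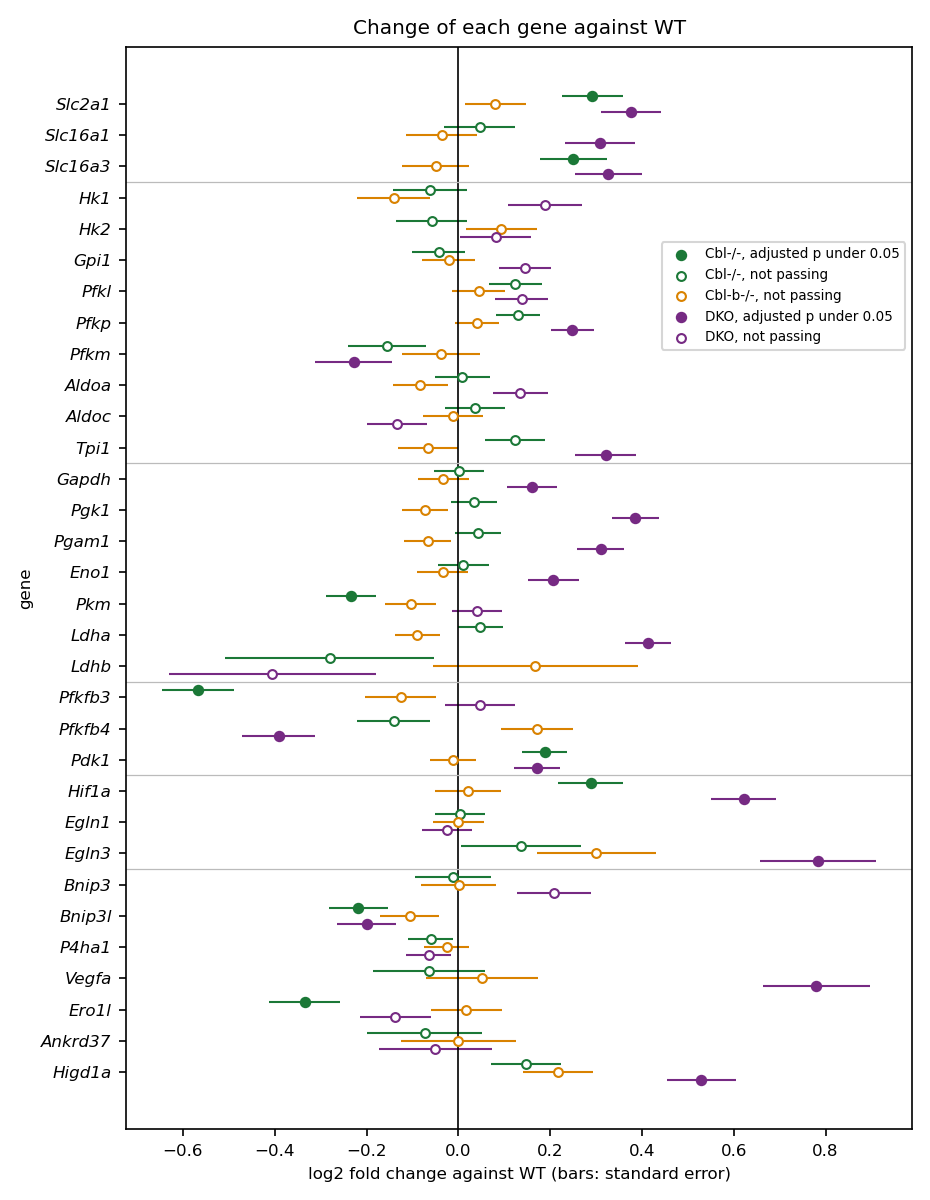
Log2 fold change against WT (horizontal axis; bars are standard errors) of each of the 32 genes in Cbl-/- (green) and the libraries labelled Cbl-b-/- (orange) and DKO (purple), with filled points where the adjusted p was under 0.05. No orange point is filled, and the purple points of 15 genes are filled to the right of 0 against 3 to the left.

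Of the 7 other HIF targets 2 rose and 1 fell in the libraries labelled DKO, and 2 fell in Cbl-/-. Over all genes tested 19.1% rose and 16.3% fell under the label DKO, and 5.68% rose and 4.19% fell in Cbl-/-. Vegfa had 8.61, 7.52 and 10.8 CPM in WT, 8.36, 9.46 and 7.85 in Cbl-/-, 9.61, 8.61 and 9.51 in the libraries labelled Cbl-b-/- and 15.1, 15.6 and 15.2 in those labelled DKO. The latter lay close together and above all other libraries, at 0.78 (SE 0.12, adjusted p = 7.2e-05) against WT. Higd1a, a hypoxia-induced protein of the mitochondrial inner membrane, had 23.7, 24.7 and 25.6 CPM in WT, 26.9, 27.4 and 27.5 in Cbl-/-, 27.1, 30.9 and 27.8 in the libraries labelled Cbl-b-/- and 33.3, 34.5 and 38.9 in those labelled DKO. WT was lowest and the libraries labelled DKO highest without overlap, and the change in DKO was 0.53 (SE 0.07, adjusted p = 4.0e-05). Cbl-/- stood at 0.15 (SE 0.08, adjusted p = 0.28) against WT and the libraries labelled Cbl-b-/- at 0.22 (SE 0.08, adjusted p = 0.41), neither past the threshold.

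The genes of this role that fell belong to mitochondria and the endoplasmic reticulum. Ero1l, an oxidase that helps form disulfide bonds in new proteins, had 139.9, 143 and 127 CPM in WT, 107, 108 and 110.1 in Cbl-/-, 134, 144 and 137 in the libraries labelled Cbl-b-/- and 114, 115 and 144 in those labelled DKO. All Cbl-/- libraries lay below WT, and DKO 3 stood apart from its partners, just above the highest WT library. It fell by 0.33 (SE 0.08, adjusted p = 0.0098) in Cbl-/-, a call lost without WT 1 or WT 2 (adjusted p = 0.051 and 0.056), and was at -0.14 (SE 0.08, adjusted p = 0.19) in the libraries labelled DKO. Bnip3l, a receptor for the removal of mitochondria by autophagy, had 91.8, 86.5 and 89.5 CPM in WT, 80.2, 73.3 and 76.7 in Cbl-/-, 82.5, 86.2 and 80.0 in the libraries labelled Cbl-b-/- and 75.0, 72.8 and 85.3 in those labelled DKO. WT was highest, without overlap with any other group. It fell by 0.22 (SE 0.06, adjusted p = 0.042) in Cbl-/- and by 0.20 (SE 0.06, adjusted p = 0.023) in the libraries labelled DKO. The first call was lost in 10 of 20 alternatives, among them each that left out a WT or Cbl-/- library (adjusted p = 0.065 to 0.19) or Cbl-b-/- 1 or 2 (0.061 and 0.052). The second was lost without WT 1, WT 3, DKO 1 or DKO 2 (adjusted p = 0.094, 0.057, 0.080 and 0.086). It was also lost with only the compared genotypes in the fit (0.088).

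The 3 remaining targets did not pass in any comparison with WT. Bnip3, the partner of Bnip3l in the removal of mitochondria, had 58.1 ± 0.77 CPM in WT and 67.0 ± 10 in the libraries labelled DKO (SD, n = 3), at 0.21 (SE 0.08, adjusted p = 0.057) on the log2 scale, with DKO 3 at 78.9 CPM against 60.3 and 61.9. P4ha1, a subunit of the hydroxylase that matures collagen, lay between -0.06 and -0.03 in the 3 comparisons, and Ankrd37 between -0.07 and -0.0003. P4ha1 did pass as lower in the libraries labelled DKO when scaled by total counts.

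Promoters are shown for Hif1a, Slc2a1, Slc16a3 and Pdk1, the genes past the threshold in both Cbl-/- and the libraries labelled DKO for which RefSeq gave a window; Bnip3l is the other such gene. All 4 rose in both comparisons, and the window of each holds ACGTG or GCGTG, the core of the hypoxia response element, as do those of 29 of the 31 members with a window (93.5%) and of 61.4% of tested genes with one. Sequences are from RefSeq on GRCm38.p6, plus strand, 5′ to 3′, taken from the 250 bases before the annotated start and ended where an annotated exon begins or after a core that crosses that border. Capitals mark ACGTG or GCGTG, or their reverse complements CACGT and CACGC, and CACGTG, an E-box, holds ACGTG on both strands.
Hif1a, chr12:73907617-73907866: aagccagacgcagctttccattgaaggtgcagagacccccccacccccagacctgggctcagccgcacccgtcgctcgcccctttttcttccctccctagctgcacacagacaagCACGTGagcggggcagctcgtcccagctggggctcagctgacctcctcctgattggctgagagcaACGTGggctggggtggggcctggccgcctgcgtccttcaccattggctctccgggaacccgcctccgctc
Slc2a1, chr4:119108495-119108713: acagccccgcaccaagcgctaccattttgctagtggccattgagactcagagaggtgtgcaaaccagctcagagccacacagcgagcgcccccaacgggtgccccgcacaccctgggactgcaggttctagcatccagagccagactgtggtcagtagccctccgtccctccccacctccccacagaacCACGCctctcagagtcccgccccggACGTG
Slc16a3, chr11:120948817-120949052: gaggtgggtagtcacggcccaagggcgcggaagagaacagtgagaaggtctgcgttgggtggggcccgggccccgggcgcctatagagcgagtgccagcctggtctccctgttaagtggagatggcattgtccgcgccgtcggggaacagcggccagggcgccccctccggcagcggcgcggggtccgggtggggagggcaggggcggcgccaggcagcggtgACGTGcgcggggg
Pdk1, chr2:71872974-71873223: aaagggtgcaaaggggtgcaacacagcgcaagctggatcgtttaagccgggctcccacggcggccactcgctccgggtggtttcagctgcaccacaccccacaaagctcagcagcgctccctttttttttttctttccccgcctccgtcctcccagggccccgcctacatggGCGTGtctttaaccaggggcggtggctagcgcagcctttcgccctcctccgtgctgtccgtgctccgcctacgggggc
Ldha and Pgk1 were added after their values were seen, as the enzyme genes with the smallest adjusted p in the libraries labelled DKO.
Ldha, chr7:46845554-46845803: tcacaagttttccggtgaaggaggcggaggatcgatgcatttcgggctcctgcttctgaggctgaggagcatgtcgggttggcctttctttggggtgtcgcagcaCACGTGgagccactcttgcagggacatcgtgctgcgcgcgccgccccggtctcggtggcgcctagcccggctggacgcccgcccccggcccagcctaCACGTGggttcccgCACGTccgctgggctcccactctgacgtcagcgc
Pgk1, chrX:106186850-106187099: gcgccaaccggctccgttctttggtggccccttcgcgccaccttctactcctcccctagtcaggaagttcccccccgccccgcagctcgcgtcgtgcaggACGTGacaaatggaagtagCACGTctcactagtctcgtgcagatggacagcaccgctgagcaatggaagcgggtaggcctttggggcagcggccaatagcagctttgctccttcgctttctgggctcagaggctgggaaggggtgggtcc
The window of Hif1a lies inside the span that GENCODE gives the gene, before a start that RefSeq lists. It holds 3 matches to ACGTG, 2 of them within its single CACGTG, Ldha holds 5 in the window shown, and Pdk1 holds GCGTG alone. In Slc16a3 a second ACGTG lies past the end of the printed stretch, in the annotated exon.

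Over all members, 31 of 32 had a window of 250 bases, 45 windows in all. ACGTG on either strand occurred in 19 of the 31 (61.3%), against 25.2% of the 9796 tested genes with a window and 16.6% of all 32851 windows. GCGTG occurred in 71.0% of members against 50% of tested genes and 28.2% of windows. CACGTG, which overlaps ACGTG, occurred in 19.4% of members against 10.0% of tested genes and 6.0% of windows. Members had 1.45 windows per gene against 1.28 for tested genes. Of the 29 members with either core 14 rose, 2 fell and 13 stayed short of the threshold under the label DKO. There 9 of the 19 members with ACGTG rose, as did 6 of the 12 without it, and in Cbl-/- 3 of 19 and 1 of 12 rose. Many members were chosen by name as HIF targets, so their higher share of these cores may follow from that choice. A match is a description of these letters and shows no binding.

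Levels of different genes were compared per length, as FPKM computed from the counts and the union of all annotated exons. That union can be longer than the transcript expressed, so the order of genes depends on it. In WT the most abundant were Pkm at 922 ± 8.5 FPKM, Aldoa at 587 ± 14, Pgam1 at 529.5 ± 1.7 and Pgk1 at 406 ± 8.7 (SD, n = 3). Eno1 at 350.2 ± 8.2 and Ldha at 346 ± 4.2 did not differ beyond their spread, and Tpi1 (182 ± 7.6), Gapdh (158 ± 2.2) and Gpi1 (111 ± 2.7) followed. The transporters were lower, with Slc2a1 at 37.9 ± 2.4, Slc16a3 at 24.9 ± 0.41 and Slc16a1 at 7.54 ± 0.89. Egln1 at 24.3 ± 0.18 and Hif1a at 23.8 ± 0.52 overlapped, and Egln3 (3.46 ± 0.33), Vegfa (2.09 ± 0.38) and Ldhb (2.07 ± 0.17) were the lowest 3.

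How evenly families were shared differed between them. Ldha made up 99.3% to 99.7% of Ldha plus Ldhb per length on average, and Aldoa 97.0% to 97.6% of Aldoa plus Aldoc. Of the 3 phosphofructokinase genes Pfkl held 53.4% ± 0.32 in WT and 54.1% ± 1.7 in the libraries labelled DKO. Pfkp held 30.0% ± 0.27 and 32.8% ± 1.4 (SD, n = 3). In CPM the order was the reverse, with Pfkp at 131 ± 1.2 and Pfkl at 116 ± 2.6 in WT. The union of exons is 13401 bases for Pfkp and 6675 for Pfkl. The myeloid hexokinase gene Hk3 is not a member. It held 67.0% ± 1.3 of the hexokinase sum with Hk1 and Hk2 in WT and 70.7% ± 0.72 in the libraries labelled DKO. In CPM Hk3 stood at 255 ± 7.2 in WT, beside 175 ± 2.4 for Hk1 and 81.8 ± 8.0 for Hk2. Its union of exons is 3682 bases against 8532 and 5969, so its share per length is larger than by counts. Together the 16 enzyme genes took 1.38% ± 0.006 of all counts in WT, 1.35% ± 0.004 in Cbl-/-, 1.33% ± 0.011 in the libraries labelled Cbl-b-/- and 1.49% ± 0.102 in those labelled DKO (SD, n = 3). The 3 libraries behind the last value stood at 1.498%, 1.593% and 1.39%.

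The libraries labelled DKO varied more than the others in these genes. The median coefficient of variation over the members was 2.37% in WT, 2.19% in Cbl-/-, 4.22% in the libraries labelled Cbl-b-/- and 8.11% in those labelled DKO, beside 5.15%, 4.98%, 7.14% and 10.3% over all genes tested. Of the 16 enzyme genes, 12 were highest in DKO 2 and 12 were lowest in DKO 3. DKO 3 was highest in 8 of the 32 members: Hif1a, Bnip3, Higd1a, Ero1l, Bnip3l, Pdk1, P4ha1 and the enzyme gene Pgk1. Without DKO 3 the number of members called against WT was 22, within 1.5 times of the 18 with it.

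Against Cbl-/-, 16 members differed in the libraries labelled DKO, 15 higher and 1, Pfkfb4, lower, beside 29.6% of all genes tested in either direction, 16% higher and 13.6% lower. All 3 libraries labelled DKO lay above all 3 Cbl-/- libraries in 16 members and below them in 2, against 22.5% and 20.2% of all genes. The largest differences were those of Vegfa (1.79-fold), Egln3 (1.57-fold) and Pfkfb3 (1.53-fold). Hif1a was 1.26-fold higher (log2 0.33, SE 0.07, adjusted p = 0.0020) and Ldha 1.29-fold (log2 0.37, SE 0.05, adjusted p = 3.5e-05). Slc2a1, Slc16a3 and Pdk1, which rose in both genotypes, had differences of 0.08, 0.08 and -0.02 between them, none past the threshold, and with total counts Slc2a1 and Slc16a3 turned to just below 0 (Slc16a3 at -0.01). The call of Pfkfb4 was lost without Cbl-/- 1, Cbl-/- 3, DKO 2 or DKO 3 (adjusted p = 0.085, 0.076, 0.055 and 0.051). Among the higher calls, that of Gapdh was lost in 10 of 20 alternatives. Those of Hk1 and Tpi1 were lost in 6 each, of Gpi1 and Eno1 in 5 each and of Slc16a1 in 2. The count was 9 without Cbl-/- 1, and with total counts the split was 9 higher and 2 lower.

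Against the libraries labelled Cbl-b-/-, 19 members differed, 18 higher and Pfkfb4 lower, beside 33.2% of all genes tested in either direction, 17.7% higher and 15.6% lower. All 3 libraries labelled DKO lay above those labelled Cbl-b-/- in 19 members and below them in 1, against 20.9% and 19.6% of all genes. Vegfa (1.66-fold) and Hif1a (1.52-fold) were the 2 past 1.5-fold, and Ldha (1.42-fold) and Pgk1 (1.37-fold) led the enzymes. Gpi1 and Aldoa, which did not pass against WT, passed here, at 0.17 (SE 0.06, adjusted p = 0.035) and 0.22 (SE 0.06, adjusted p = 0.010), as did Hk1 at 0.33 (SE 0.08, adjusted p = 0.0045). With total counts the split was 13 higher and 7 lower. The call of Gpi1 was lost in 8 of 20 alternatives, among them without WT 1, any library labelled Cbl-b-/-, DKO 1 or DKO 2 (adjusted p = 0.051 to 0.15). Those of Gapdh, Pdk1, Aldoa and Pfkp were lost in 4, 3, 2 and 1.

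For 9 members the libraries labelled DKO lay off the sum of both single-genotype changes, 8 higher than the sum and Pfkfb4 lower, beside 15.7% of all genes tested, 8.39% higher and 7.28% lower than the sum. For Ldha the single changes summed to -0.04 and the change in the libraries labelled DKO was 0.41, and for Pgk1 they were -0.04 and 0.39. Vegfa went from a sum of -0.01 to 0.78. Pfkfb3 and Pkm fell in Cbl-/- and were close to WT in the libraries labelled DKO, with departures of 0.74 (SE 0.11, adjusted p = 2.2e-04) and 0.38 (SE 0.08, adjusted p = 0.0029). Slc2a1 and Pdk1 showed no departure from the sum beyond their errors, at 0.00 (SE 0.09, adjusted p = 0.99) and -0.01 (SE 0.07, adjusted p = 0.97). Pgk1, Pgam1, Pkm, Ldha, Pfkfb3 and Vegfa passed under all 19 alternatives run. The count was 16 without DKO 3, and with total counts it was 7, a scaling that moved the median departure of all genes from 0.00 to -0.11.

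**Figure D4:**
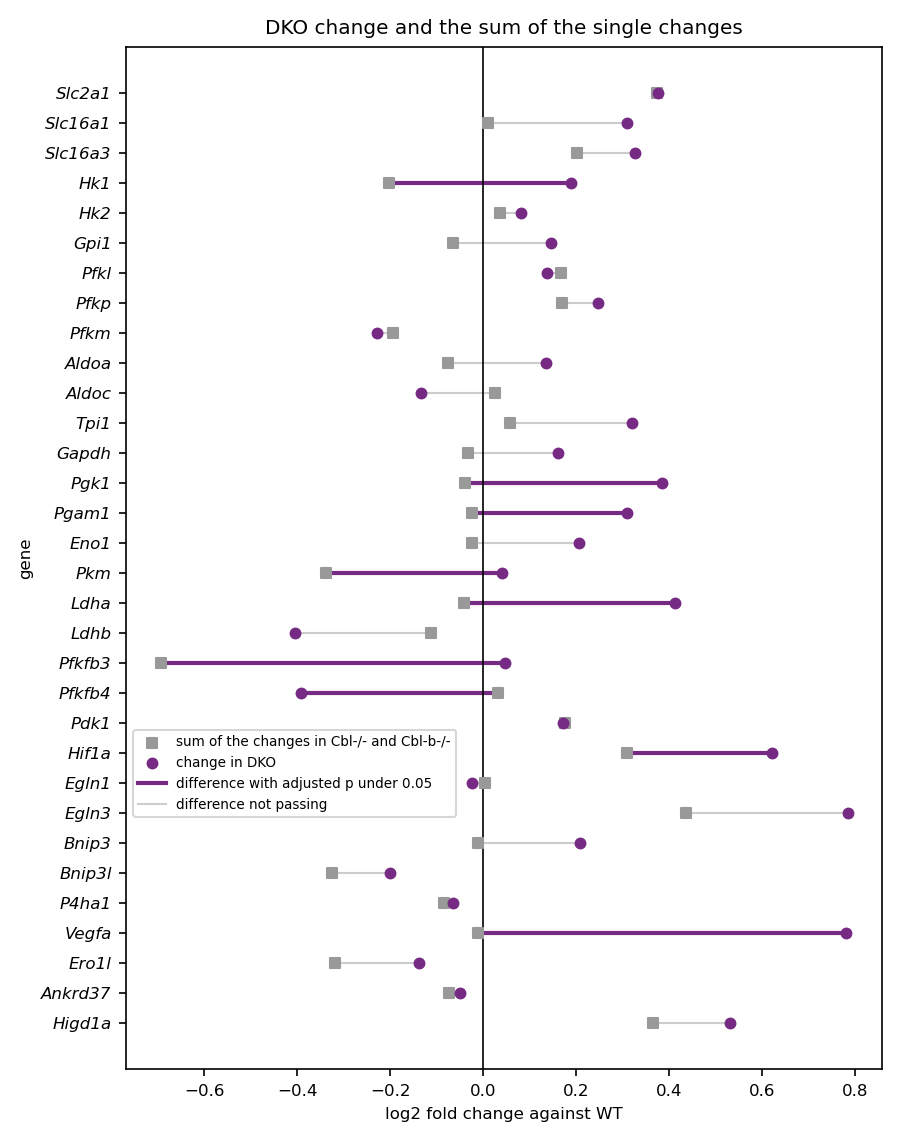
For each of the 32 genes, the change in the libraries labelled DKO against WT (purple circles) and the sum of the changes in Cbl-/- and the libraries labelled Cbl-b-/- (grey squares), as log2 fold changes on the horizontal axis; thick purple lines join pairs whose difference had an adjusted p under 0.05. The pairs lie almost on top of each other for Slc2a1 and Pdk1 and are farthest apart for Vegfa and Pfkfb3.

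Other genes of these pathways were read from 8 lists with 110 genes, 98 in the table and 91 tested. In Cbl-/- 7 rose and 7 fell, in the libraries labelled Cbl-b-/- 0 passed, and in those labelled DKO 33 rose and 19 fell. Over all genes tested the shares higher and lower were 5.68% and 4.19% in Cbl-/-, 0.395% and 0.0947% under the label Cbl-b-/-, and 19.1% and 16.3% under the label DKO. The medians over the 91 genes were -0.02, -0.0021 and 0.04, and 10 of the 91 had an unadjusted p under 0.05 in the libraries labelled Cbl-b-/-, beside 7.6% of all genes.

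Among other HIF regulators, Epas1, which encodes HIF-2 alpha, rose in Cbl-/- and fell in the libraries labelled DKO. It had 12.2, 10.2 and 10.7 CPM in WT, 16.7, 16.6 and 17.6 in Cbl-/-, 9.49, 11 and 12 in the libraries labelled Cbl-b-/- and 5.38, 4.17 and 4.41 in those labelled DKO. Cbl-/- lay above and the libraries labelled DKO below every other library, at 0.62 (SE 0.11, adjusted p = 0.0016) and -1.25 (SE 0.12, adjusted p = 7.4e-07) against WT. In Cbl-/- it was the 1 of 11 that passed. In the libraries labelled DKO 4 of 11 rose and 2 fell, with Arnt2, a partner of HIF alpha subunits, at 3.00 from a low level, Cul2 at 0.40 and Elob at 0.20, both parts of the ligase that degrades HIF alpha, and Hif1an, the asparaginyl hydroxylase of HIF alpha, at -0.23. Arnt2 rose from 0.137 ± 0.098 to 1.18 ± 0.28 CPM (SD, n = 3).

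Of 27 further hypoxia-responsive genes, 3 rose and 4 fell in Cbl-/-, and 9 rose and 9 fell in the libraries labelled DKO. Fam162a, a hypoxia-induced mitochondrial protein, had 4.66, 5.23 and 6.40 CPM in WT, 28.0, 32.1 and 25.4 in Cbl-/-, 5.05, 6.36 and 3.26 in the libraries labelled Cbl-b-/- and 2.42, 2.07 and 2.96 in those labelled DKO. The Cbl-/- libraries stood far above the others and those labelled DKO were the lowest, at 2.40 and -1.10 against WT. In Cbl-/- Gbe1 (0.40) and Lox (1.59) rose too, and Hmox1, heme oxygenase (-0.46), the neuronal-type glucose transporter gene Slc2a3 (-0.43) and Zfp395 (-0.28) fell. In the libraries labelled DKO Lox, the collagen cross-linking enzyme, rose by 4.01, from 0.340 ± 0.097 to 5.64 ± 0.36 CPM, Ak4 by 0.94 and Bhlhe40 by 0.54, while Zfp395 (-0.91), Hmox1 (-0.45) and Mxi1 (-0.43) fell. Fibroblast markers were also higher under the label DKO, as given above. In Cbl-/-, where Lox rose too, 0 of the 4 fibroblast markers tested passed. The part of fibroblast markers in the changes of Lox was not tested.

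Isoforms and side branches of glycolysis also differed. Of 12 other glycolytic genes 4 rose in the libraries labelled DKO and 0 fell: the enolase gene Eno2 (log2 1.33, SE 0.17, adjusted p = 1.5e-05), Hk3 (log2 0.40, SE 0.06, adjusted p = 3.9e-05), Pgm1 (0.33) and Adpgk. In Cbl-/- Adpgk (0.29) and Pgm1 (0.24) rose and Hk3 (-0.18) fell. Of 8 other carriers 4 rose and 1 fell in the libraries labelled DKO, with both genes of the mitochondrial pyruvate carrier, Mpc1 (0.39) and Mpc2 (0.27), and the MCT chaperone Bsg (0.20) higher and Slc2a8 (-0.58) lower, and in Cbl-/- Slc2a3 was the 1 that fell. Of 9 genes of pyruvate dehydrogenase and its kinases and phosphatases 6 rose and 1 fell in the libraries labelled DKO, among them the subunit genes Pdha1 (0.44) and Pdhb (0.41) and the kinase gene Pdk3 (0.59) higher and Pdk2 (-0.82) lower, and 0 passed in Cbl-/-. In the pentose phosphate pathway 2 of 8 rose and 3 fell in the libraries labelled DKO: G6pdx (0.28) and Rpe (0.36) against H6pd (-0.67), Taldo1 (-0.35) and Pgd (-0.20), while Rpia (-0.34) fell in Cbl-/-. Of 9 glycogen genes Gbe1 (0.58), Gyg (0.23) and Gys1 (0.30) rose and Ppp1r3b (-0.48) and Pygb (-0.20) fell in those libraries, and in Cbl-/- Gbe1 rose and Gyg (-0.27) fell. Of 10 regulators of glycolytic transcription 1 rose in Cbl-/-, and 3 rose and 1 fell in the libraries labelled DKO, among them Mlx (0.20), Max (0.17) and Usf2 (-0.23).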

How the data were processed

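The authors deposited raw counts per gene, by Ensembl identifier, for 12 RNA-seq libraries made with a stranded mRNA kit. Gene symbols were added here from a separate list of gene names. Culture ran to day 9 and RNA was pooled, per the labels' protocols, in equal molar amounts, without a statement of what was pooled. Per the submitters' processing notes the genome was GRCm38.p5. Aligner, counter, annotation and strand setting were not given in the sources used here. Counts were tested with edgeR 4.0.16 (R 4.3.3; quasi-likelihood F test, robust, TMM factors, filterByExpr), with all 12 libraries in 1 fit and 1 mean per genotype. Genes passing the filter numbered 12671 of 15555, 2884 left out, and p-values were adjusted over all 12671 by Benjamini-Hochberg in each of 6 comparisons, with a threshold of 0.05. SE is the standard error of the log2 fold change. Replicates differed by more than counting noise (chi-square per degree of freedom 3.93 to 55.3). The script was tested on simulated data.

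The members, lists and tests were chosen with earlier results of these data known. Values in every library are given for members past the threshold in a comparison with WT and for Hif1a, Egln1, Egln3, Slc2a1, Ldha, Pdk1 and Pfkfb3, and for other lists up to 3 genes per direction with the smallest adjusted p. A gene that this rule names is not reported here. Promoters were chosen as the up to 4 members called most often against WT. Alternatives were DESeq2 1.42.0, its size factors, limma 3.58.1 voom, total counts, no filter, at least 5 CPM in 3 libraries, only the compared genotypes, a replicate block and leaving out each library. Positions are from GENCODE M21 (GRCm38), promoters from RefSeq (GRCm38.p6), and copies were found with blastn 2.17.0.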

Additional observations from a re-analysis of the deposited data

Results flagged for a closer look

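For 9 of the 32 genes the test of non-additivity, which asks whether the change in the libraries labelled DKO differs from the sum of the changes in Cbl-/- and the libraries labelled Cbl-b-/-, had an adjusted p under 0.05 (edgeR's quasi-likelihood F test), beside 15.7% of all genes tested. The effect of the Cbl label therefore differed with the Cbl-b label for these genes. Vegfa departed from the sum by 0.79 (SE 0.17, adjusted p = 0.0042) and Pfkfb3 by 0.74 (SE 0.11, adjusted p = 0.00022) on the log2 scale. The enzyme genes followed with 0.45 for Ldha (adjusted p = 0.00030), 0.42 for Pgk1 (0.00069), 0.39 for Hk1 (0.027), 0.38 for Pkm (0.0029) and 0.33 for Pgam1 (0.0043). Pfkfb4 departed in the other direction, by -0.42 (adjusted p = 0.017), a call lost without WT 3 (adjusted p = 0.053).

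Hif1a departed by 0.31 (SE 0.10, adjusted p = 0.045), the value closest to the threshold. It no longer passed under 13 of 19 alternatives, with adjusted p from 0.051 to 0.15, among them those without each of the WT, Cbl-/- and Cbl-b-/- libraries. Hk1 no longer passed under 9 of 19, with adjusted p from 0.053 to 0.10, among them those without WT 1, WT 3, Cbl-/- 1, Cbl-/- 2, Cbl-b-/- 2, Cbl-b-/- 3, DKO 1 or DKO 2. Cblb counts were not lower than in WT by the test in either group labelled as lacking it, so these departures rest on the labels.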

How the results depend on the processing

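No member past the threshold, in the main result or under the alternative, changed sign in any of the 20 alternatives. Members short of it in both did, among them Pkm and Pfkfb3 in DKO against WT, at -0.03 and -0.02 with total counts. The number of members called was 8 in Cbl-/-, and leaving out 1 library moved it between 2 and 10; it was 2 without WT 1, 3 without WT 2, 5 without WT 3, 3 without Cbl-/- 1, 3 without Cbl-/- 2, 4 without Cbl-/- 3 and 10 without DKO 3. The same ranges were 0 to 0 for the libraries labelled Cbl-b-/-, 15 to 22 for those labelled DKO, 9 to 19 for DKO against Cbl-/-, 17 to 23 for DKO against Cbl-b-/- and 6 to 16 for non-additivity. With only the compared genotypes in the fit the calls over all genes in Cbl-/- rose from 1251 to 2753. Calls that passed under every alternative numbered 2 of 8, 13 of 18, 9 of 16, 14 of 19 and 6 of 9 in the 5 comparisons with calls; the cause of the others' loss was not tested. Same-numbered libraries did not deviate together, with correlations of -0.054 to 0.052 over 18 pairs, beside -0.09 to 0.09 for other pairs. Of the 12 libraries 4 were closest to their own number. No pairing by number was detected, but these values cannot show that equal numbers share no animal, batch or day. With the replicate block the counts were 7, 0, 18, 16, 19 and 8. Counts per library limited Ldhb most, which the filter at 5 CPM left out.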
